A study of Mus musculus with 2 samples.

Results

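Chemokine ligand and receptor genes were followed across 3 days of drug-induced fat cell formation in Xbp1 knockout fibroblasts of mouse embryos. The members were the gene probes whose annotated symbol begins as a numbered CC or CXC chemokine ligand or receptor, or as Cx3cl1, Cx3cr1, Xcl1 or Xcr1. The rule found 52 of the 29922 gene probes on the array, and these stand for 48 of 16637 genes. They comprised 16 CC ligands, 14 CXC ligands, 1 CX3C ligand, 1 XC ligand, 10 CC receptors, 3 CXC receptors, 1 CX3C receptor, 1 XC receptor and the atypical receptor Cxcr7, whose current symbol is Ackr3. Day 3 was 1 array and day 0 was 1 array, both of Xbp1 knockout cells and both labelled with Cy5. Day 0 was the day of confluence, and induction then ran for 72 h with troglitazone, an agonist of PPARγ, at 5 µM, insulin at 10 µg/ml, the phosphodiesterase inhibitor IBMX at 0.25 mM and DXM at 5 µM. The labels do not state whether the day 0 cells were collected before the drugs were added, so day 0 cannot be called untreated. Fibroblasts with intact Xbp1 were not analysed here, so every value below belongs to knockout cells on either day. With 1 sample per day there was no replicate check, no test and no p-value.

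Chemokines are small secreted proteins that direct the movement of leukocytes by binding G protein-coupled receptors on them. CC and CXC chemokines are named for whether their first cysteines are adjacent or separated by another residue. Fibroblasts and fat cell precursors make many of the ligands, while most of the classical receptors are found on leukocytes. Atypical receptors bind chemokines without classical G protein signalling and can clear them from the surroundings.

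Signals are quantile-normalized fluorescence values in arbitrary units. Detection required a signal above 122 on 1 day or more, and 122 is the median signal over the gene probes. This threshold is far above the empty spots, whose median raw value was 0 on both days. Before normalization the gene probes had a median of 166 on day 3 and 78 on day 0. Raw values of 65000 or more were taken as saturated. All 8 fibroblast markers were detected on both days, and 0 of 5 fat cell markers were detected on either. The summed signal of those 5 was nevertheless 284 on day 3 and 71.5 on day 0. Adipoq lay just under the threshold on day 3 (120.5, and 12 on day 0), while Cfd read lower on day 3 (7.5, and 15.5 on day 0). Xbp1 itself read 13561 on day 3 and 20936 on day 0, which does not check the knockout label, because the position of its probe was not analysed here. Scatter between repeated spots of control features gave an SD of 0.41, 0.40, 0.40 and 0.37 for a log2 difference in 4 rising ranges of signal. Pooled over features, which weighs noisy features more, it was 0.64, 1.01, 0.50 and 0.90. These SDs leave out variation between cultures, extractions and arrays. Across the array, 1386 genes had exactly 2 detected and unsaturated probes, and the gap between the differences from those probes had a median of 0.50 and a 90th percentile of 1.42. Related chemokine genes have similar sequences, and cross-hybridization between them was not tested because probe sequences were not analysed here.

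Of the 48 genes, 23 were detected on at least 1 day, 18 of them on both. Of these, 7 reached 2-fold upward on day 3, against 12.8% of all detected genes, and 6 reached it downward, against 10.3%. A gene above the threshold on 1 day only had to differ between the days, so the same count was made over every gene with all signals raised to at least the threshold. On that footing 7 of 48 members (14.6%) were at least 2-fold higher on day 3, against 6.55% of all genes on the array, and 5 of 48 (10.4%) were at least 2-fold lower, against 5.45%. Among the 18 members detected on both days, 6 were higher and 4 lower, where the shares over all such genes were 10.1% and 8.43%. No test was made of these shares.

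**Figure D1:**
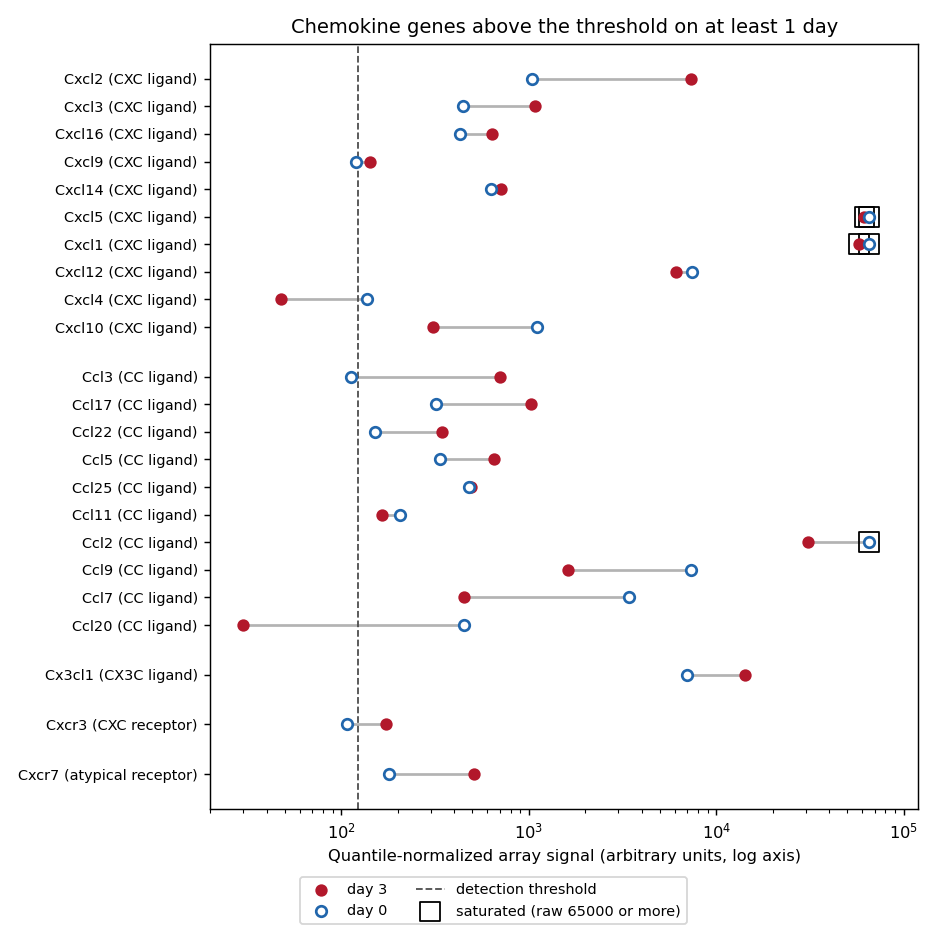
Signal of each detected chemokine gene on day 3 (filled red) and day 0 (open blue), on a log axis in arbitrary units, with the detection threshold of 122 dashed and saturated readings boxed. Cxcl2, Ccl3 and Ccl17 lie well to the right on day 3, while Ccl7, Ccl9 and Ccl20 lie well to the left.

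The CXC ligands that attract neutrophils through Cxcr2 differed among themselves. Cxcl2 gave a signal of 7357 on day 3 against 1039.5 on day 0, 7.08-fold higher (log2 difference 2.82, pooled repeat-spot SD 0.50). Cxcl3, a close relative, gave 1083.75 on day 3 and 444.5 on day 0, which is 2.44-fold higher (1.29, pooled SD 1.01). Both differences exceed the pooled SD, and that of Cxcl3 does so narrowly and was 0.84 under median scaling over all gene probes, short of 2-fold. Cxcl1 and Cxcl5 were saturated on both arrays, with raw values of 65464 on day 3 and 65472 on day 0 for Cxcl1 and 65466 and 65476 on the same days for Cxcl5. Their normalized signals differed only because normalization assigns values by rank, so no fold is given for either and a difference in their transcripts could not have been seen. Cxcl15, the lung-enriched member of this group, was below the threshold on both days (45 on day 3 and 54 on day 0). Ppbp, which encodes a platelet precursor of Cxcr2 ligands and lies outside the rule by its name, gave 3527 on day 3 and 17239 on day 0, 4.89-fold lower.

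The promoters of Cxcl2, Cxcl3 and Cxcl1 are shown from this group. Cxcl2 and Cxcl3 were both higher on day 3 and lie close together in the genome, with Cxcl15 and Cxcl1 between them. Sequences are RefSeq windows of 300 bases, 250 before and 50 after the gene's start, read 5′ to 3′ along the gene, and capitals mark matches on either strand to the NF-kB consensus, a site bound by a factor family known for inducing chemokine genes. Overlapping matches are merged into 1 run of capitals. The promoters of Cxcl10 and Ccl20, genes that were lower on day 3, are set below them for comparison.
Cxcl2 promoter, GRCm38.p6, chr5:90903649-90903948, plus strand: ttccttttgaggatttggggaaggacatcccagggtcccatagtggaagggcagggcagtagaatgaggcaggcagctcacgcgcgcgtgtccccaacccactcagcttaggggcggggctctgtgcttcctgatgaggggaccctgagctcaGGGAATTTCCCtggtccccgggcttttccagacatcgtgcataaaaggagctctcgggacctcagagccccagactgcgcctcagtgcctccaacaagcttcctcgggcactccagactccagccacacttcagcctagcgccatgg
Cxcl3 promoter, GRCm38.p6, chr5:90785851-90786150, plus strand: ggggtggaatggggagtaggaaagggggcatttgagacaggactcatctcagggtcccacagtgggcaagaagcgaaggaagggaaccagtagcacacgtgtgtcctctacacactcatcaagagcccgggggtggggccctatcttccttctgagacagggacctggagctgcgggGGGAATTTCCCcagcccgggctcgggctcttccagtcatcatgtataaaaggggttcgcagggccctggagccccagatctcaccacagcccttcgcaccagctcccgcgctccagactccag
Cxcl1 promoter, GRCm38.p6, chr5:90890995-90891294, plus strand: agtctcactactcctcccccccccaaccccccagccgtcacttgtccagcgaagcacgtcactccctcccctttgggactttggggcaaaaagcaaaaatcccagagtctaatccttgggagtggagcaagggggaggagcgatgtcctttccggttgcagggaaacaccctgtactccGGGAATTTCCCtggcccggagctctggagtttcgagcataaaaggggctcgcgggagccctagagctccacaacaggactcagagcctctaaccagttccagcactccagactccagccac
Cxcl10 promoter, GRCm38.p6, chr5:92348840-92349139, minus strand: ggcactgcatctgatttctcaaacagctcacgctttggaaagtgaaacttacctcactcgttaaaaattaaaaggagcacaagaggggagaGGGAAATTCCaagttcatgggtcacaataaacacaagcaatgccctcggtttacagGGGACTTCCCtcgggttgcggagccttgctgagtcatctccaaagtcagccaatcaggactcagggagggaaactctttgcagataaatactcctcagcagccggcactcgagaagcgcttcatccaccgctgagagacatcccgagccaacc
Ccl20 promoter, GRCm38.p6, chr1:83116516-83116815, plus strand: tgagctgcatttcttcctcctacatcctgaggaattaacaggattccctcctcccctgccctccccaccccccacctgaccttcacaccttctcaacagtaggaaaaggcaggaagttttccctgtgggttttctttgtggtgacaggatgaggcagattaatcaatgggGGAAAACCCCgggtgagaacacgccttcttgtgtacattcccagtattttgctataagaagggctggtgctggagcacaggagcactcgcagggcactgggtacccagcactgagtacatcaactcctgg
The run of capitals is the same in Cxcl2, Cxcl3 and Cxcl1. It begins 97 bases before the start in Cxcl2, 73 in Cxcl3 and 71 in Cxcl1. Cxcl10 holds 2 separate matches and Ccl20 holds 1 on the opposite strand.

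RefSeq promoters were matched for 36 of the 48 genes. No window was matched for Ccl2, Ccl4, Ccl5, Ccl7, Ccl11, Ccl24, Ccr7, Ccr10, Cxcl5, Cxcl11, Cxcl16 and Cxcl17, so these were not searched. The NF-kB consensus occurred in 8 of these 36 (22.2%), against 4.51% of all 32851 promoter windows, and the 8 were Cxcl1, Cxcl2, Cxcl3, Cxcl10, Ccl9, Ccl20, Ccr3 and Ccr6. Genes holding it stood on both sides: Cxcl2 and Cxcl3 were higher on day 3, while Cxcl10, Ccl9 and Ccl20 were lower. The AP-1 motif TGANTCA, which reads as a match on both strands at once, was found in 6 of the 36 (16.7%), against 7.81% of all windows. The full cAMP response element TGACGTCA was found in 0 of the 36, against 1.79% of all windows. Members were counted as genes with a match in any of their windows, while the shares over the genome count windows, so the measures are not alike. These motifs were searched on both strands, and a match in a window is not evidence of binding.

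The remaining CXC ligands were mostly steady or lower. Cxcl10, an interferon-inducible attractant of activated T cells, gave 310 on day 3 and 1100.25 on day 0, 3.55-fold lower (-1.83, pooled SD 1.01). Cxcl9, which acts on the same receptor, gave 142.5 on day 3 and 119 on day 0, a bound of at least 1.17-fold higher, and its other probe was below the threshold on both days. Cxcl11, annotated in GRCm38.p6 as a transcribed pseudogene, was below it too (18 on day 3 and 52.5 on day 0). Of the 3 interferon-inducible CXC genes, then, 2 were detected and 1 was past 2-fold, downward. Cxcl12, the stromal ligand that holds haematopoietic cells in their niche, gave 6087.75 on day 3 and 7446.5 on day 0 by its brighter probe (-0.29). Its other probe gave 3775 and 7491.5 on the same days (-0.99). Both probes of Cxcl12 read lower on day 3, and neither reached 2-fold. Cxcl14 gave 714 on day 3 and 625.5 on day 0 (0.19, under its repeat-spot SD of 0.40), and its other probe was below the threshold. Cxcl16, a ligand made as a membrane protein, gave 637 on day 3 and 427.5 on day 0 by 1 probe (0.58), but 138 and 281 on the same days by the other (-1.03), so the direction of Cxcl16 depends on the probe. Cxcl4, platelet factor 4 under its older name, gave 47.5 on day 3 and 137 on day 0, a bound of only 1.12-fold lower. The other CXC ligands below the threshold on both days were Cxcl13 and Cxcl17, and no undetected CXC ligand exceeded 45 on day 3 or 54 on day 0.

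Monocyte chemoattractants among the CC ligands were lower on day 3. Ccl2, the main attractant of monocytes through Ccr2, gave 30857 on day 3 and a saturated 65470 on day 0, so it was at least 2.12-fold lower, although its log2 difference was -0.89 with no normalization. Ccl7, which shares that receptor, gave 453.25 on day 3 and 3441.5 on day 0, 7.59-fold lower (-2.92, pooled SD 0.50). Ccl11, or eotaxin, which attracts eosinophils through Ccr3, read 164 on day 3 and 204.5 on day 0 (-0.32, within its repeat-spot SD of 0.41). Their relatives Ccl8 and Ccl12 were below the threshold, at -3.5 and 37 on day 3 and -2 and 10.5 on day 0. Of the 5 genes of this subfamily, 3 were detected, 2 were at least 2-fold lower and 0 were at least 2-fold higher.

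Ccl9 and Ccl20 were the other CC ligands past 2-fold downward. Ccl9, a mouse ligand of Ccr1, gave 1610 on day 3 and 7303 on day 0, 4.54-fold lower (-2.18, pooled SD 0.50). Ccl20, the ligand of Ccr6, gave 30 on day 3 and 449 on day 0, which is at least 3.68-fold lower when the day 3 signal is set to the threshold. As read, without that bound, its log2 difference of -3.90 was the lowest of the 23 detected members.

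Other CC ligands stood higher on day 3. Ccl3, also known as MIP-1 alpha, a ligand of Ccr1, gave 698 on day 3 and 112.5 on day 0, at least 5.72-fold higher. Ccl17 gave 1022 on day 3 and 318.5 on day 0, 3.21-fold higher (1.68, pooled SD 1.01). Ccl22, which shares the receptor Ccr4 with Ccl17, gave 343 on day 3 and 150.5 on day 0, 2.28-fold higher (1.19, pooled SD 0.64, and 0.97 with an offset of 50). Ccl5, or RANTES, gave 649 on day 3 and 335 on day 0, 1.94-fold higher, just short of 2-fold and inside its pooled SD of 1.01 (0.95). Ccl25, a ligand of Ccr9 best known in thymus and gut, read 489 on day 3 and 477.5 on day 0 (0.03). The CC ligands Ccl1, Ccl4, Ccl6 and Ccl24 joined Ccl8 and Ccl12 below the threshold, and none of these 6 exceeded 60.5 on day 3 or 27 on day 0.

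Cx3cl1, or fractalkine, a chemokine tethered to the cell membrane, gave 14248.75 on day 3 and 6943.5 on day 0, 2.05-fold higher (1.04, pooled SD 0.90). Its difference was 0.36 under median scaling over all gene probes and 0.90 when the arrays were median-scaled on jointly detected probes, both short of 2-fold. Xcl1 was below the threshold on both days, at 60.5 on day 3 and 4.5 on day 0.

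**Figure D2:**
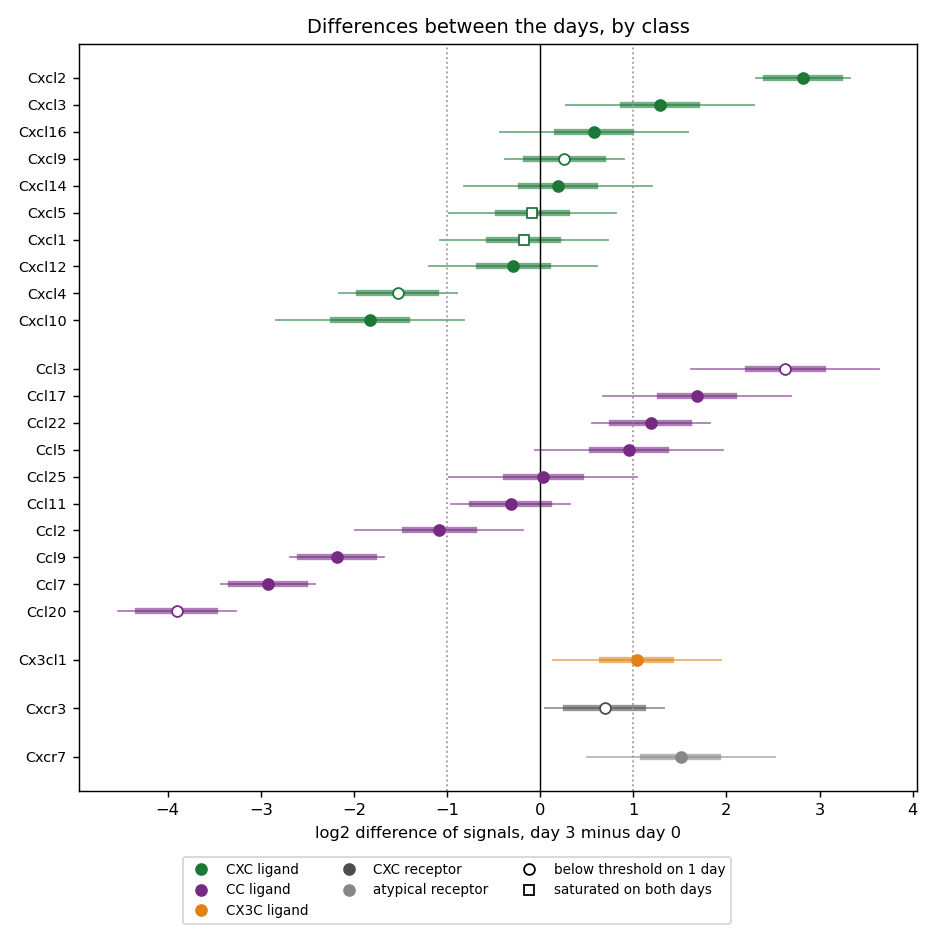
The log2 difference, day 3 minus day 0, of each detected chemokine gene by class, with thick bars for the repeat-spot SD of the median control feature and thin bars for the pooled SD. Open circles were below the threshold on 1 day, open squares were saturated on both days and dotted lines mark 2-fold. CC ligands span -3.90 to 2.63 and CXC ligands -1.83 to 2.82.

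CXC and CC ligands were compared by the median and by the size of their differences. Over 10 detected genes each, the median log2 difference was 0.05 for CXC ligands and -0.14 for CC ligands, a gap of 0.20, and the median over all detected genes was 0.03. With Cxcl1 and Cxcl5 left out as saturated on both days, the CXC median was 0.23 and the gap 0.37. The gap turned to -0.21 under median scaling over all gene probes and to -0.06 with the mean of all probes of a gene, and with every member kept whatever its signal it was -0.45. The sign of the gap thus depended on the setting. By size whatever the sign, the median log2 difference was 0.43 for CXC ligands and 1.44 for CC ligands, against 0.52 for all detected genes. The CXC value includes the saturated Cxcl1 and Cxcl5, whose small sizes lower it, so these medians are not alike measures. Among CXC ligands 2 of 10 were at least 2-fold higher and 2 at least 2-fold lower, 1 of which, Cxcl4, is below 2-fold at its bound. Among CC ligands 3 of 10 were higher and 4 lower. Over all detected genes, 12.8% were at least 2-fold higher and 10.3% at least 2-fold lower. The CC counts stood also at the bounds, then out of 16 genes, against 6.55% and 5.45% of all genes on the array. The difference in spread between the classes was not tested, and 2 of the 10 CXC genes could show no difference.

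**Figure D3:**
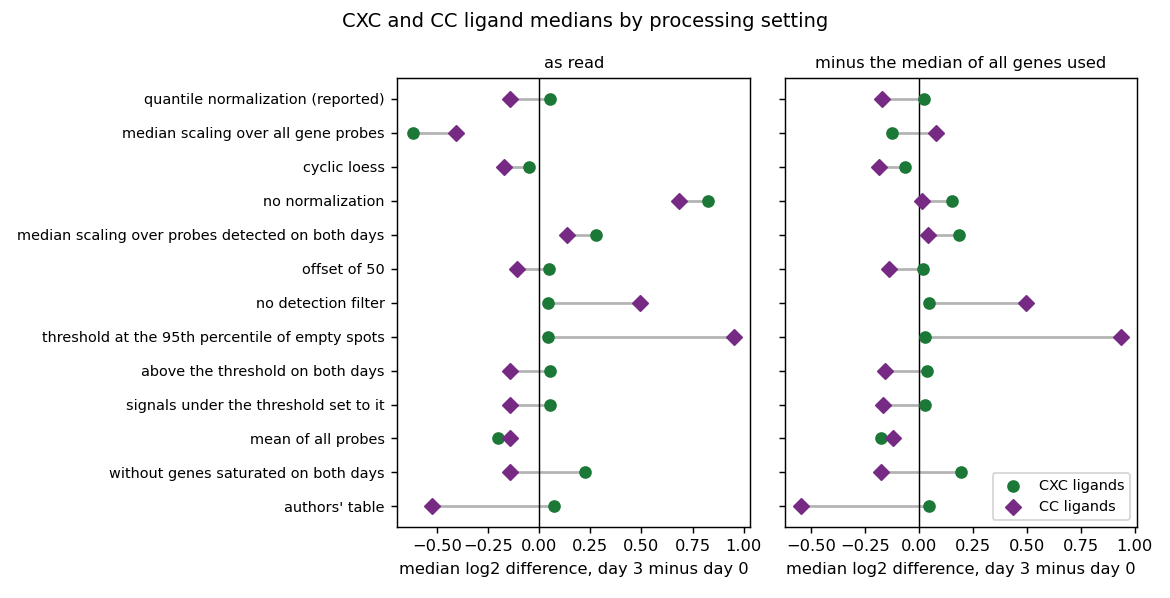
Median log2 difference, day 3 minus day 0, of CXC ligands (green circles) and CC ligands (purple diamonds) under each processing setting, as read on the left and minus the median of all genes used on the right. The order of the symbols changes between settings, from a gap of 0.59 in the authors' deposited table to -0.91 with the threshold at the empty spots.

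Several ligand genes neighbour each other, and members within 200 kb of each other on GRCm38.p6 were grouped to describe this. Ccl22, Cx3cl1 and Ccl17 form a group on chromosome 8, and all 3 were at least 2-fold higher on day 3. On chromosome 11, Ccl2, Ccl7, Ccl11, Ccl12, Ccl8 and Ccl1 form a group in which 3 were detected, all of them lower on day 3 and 2 of them 2-fold. The neighbouring group on that chromosome was mixed, with Ccl5 and Ccl3 higher on day 3 and Ccl9 lower. The group on chromosome 5 that holds Cxcl5, Ppbp, Cxcl4, Cxcl3, Cxcl15, Cxcl1 and Cxcl2 was mixed too, with 2 genes at least 2-fold higher and 2 at least 2-fold lower. Of the lower ones, Cxcl4 had a log2 difference of only -0.17 at its bound. Farther along chromosome 5, Cxcl10 was lower on day 3 (-1.83), while Cxcl9 differed by 0.26, under its repeat-spot SD of 0.41. Whether position had any part in these differences was not tested.

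**Figure D4:**
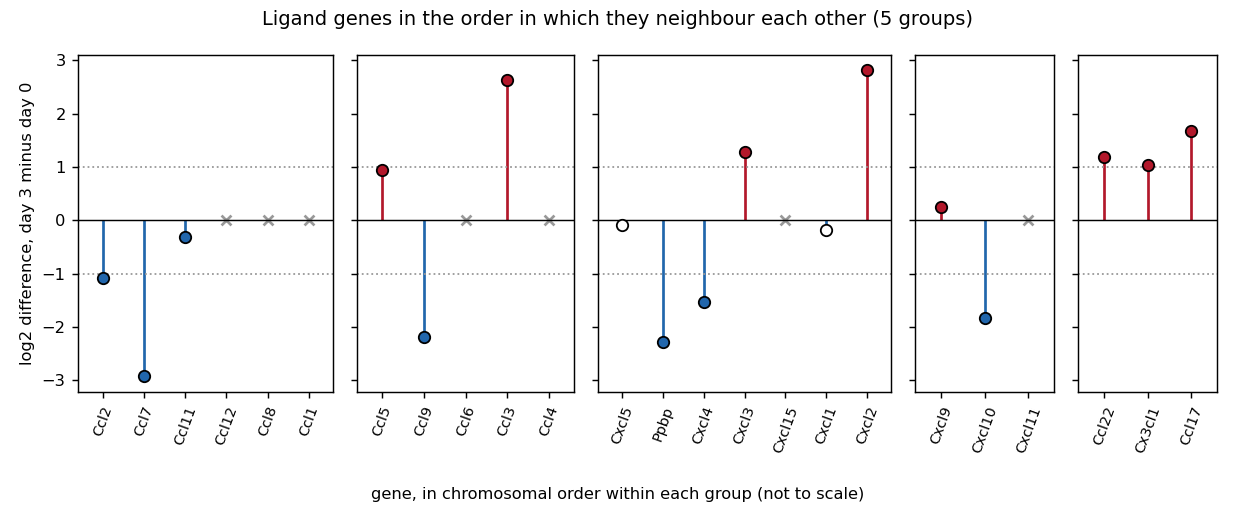
The log2 difference, day 3 minus day 0, of ligand genes placed in chromosomal order within 5 groups of neighbours, red above 0 and blue below. Grey crosses are genes below the threshold on both days, and open circles are Cxcl5 and Cxcl1, saturated on both. The group of Ccl22, Cx3cl1 and Ccl17 lies above 1 throughout in this setting, though Ccl22 and Cx3cl1 fell below 1 in some alternatives.

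Receptors were nearly all below the threshold. Over the whole array, 5981 of 16637 genes were below it on both days. Of 16 receptor genes under the rule, 14 were below the threshold on both days, none of them above 96 on day 3 or 74 on day 0. All 10 CC receptors were among them, namely Ccr1, Ccr1l1, Ccr2, Ccr3, Ccr4, Ccr6, Ccr7, Ccr8, Ccr9 and Ccr10. So were Cxcr4, the signalling receptor for Cxcl12 (-1 on day 3 and 12 on day 0), Cxcr6, which binds Cxcl16 (-3 on day 3 and 4.5 on day 0), Cx3cr1, which binds fractalkine (28 on day 3 and 74 on day 0), and Xcr1. Ccr4, the receptor for Ccl17 and Ccl22, read 69.5 on day 3 and 34.5 on day 0. A signal below the threshold does not show that a gene was silent. Cxcr3, which binds Cxcl9 and Cxcl10, gave 172 on day 3 and 106.5 on day 0, at least 1.41-fold higher. Cxcr7, or Ackr3, which takes up Cxcl12 without classical signalling, gave 509.5 on day 3 and 179 on day 0, 2.85-fold higher (1.51, pooled SD 1.01). The 3 CXC receptors listed under older names fall outside the rule. Cxcr1 and Cxcr2 were below the threshold, at 38 and 111.5 on day 3 and 27 and 64.5 on day 0, and Cxcr5 gave 7402.5 on day 3 and 6366.5 on day 0 (0.22).

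Atypical receptors and related genes outside the main naming scheme were read from a list of 10, which also holds Cxcr7 and Cxcl4. Of these, 9 were detected, 4 were at least 2-fold higher and 2 at least 2-fold lower, against 12.8% and 10.3% of all detected genes. The lower ones were Ppbp and Cxcl4, and Cxcl4 is only 1.12-fold lower at its bound. Ackr2, which takes up inflammatory CC chemokines, gave 1079 on day 3 and 164.5 on day 0, 6.56-fold higher (2.71, pooled SD 1.01). Ccrl2, which binds the attractant chemerin without signalling, gave 614.5 on day 3 and 150.5 on day 0, 4.08-fold higher. Cmklr1, the signalling receptor for chemerin, gave 325 on day 3 and 27 on day 0, at least 2.66-fold higher. Rarres2, which encodes chemerin itself, gave 791 on day 3 and 669.5 on day 0 (0.24). Ackr1 gave 164 on day 3 and 117.5 on day 0, Cklf gave 2983.5 on day 3 and 3705.25 on day 0, and Ackr4 was below the threshold on both days.

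**Figure D5:**
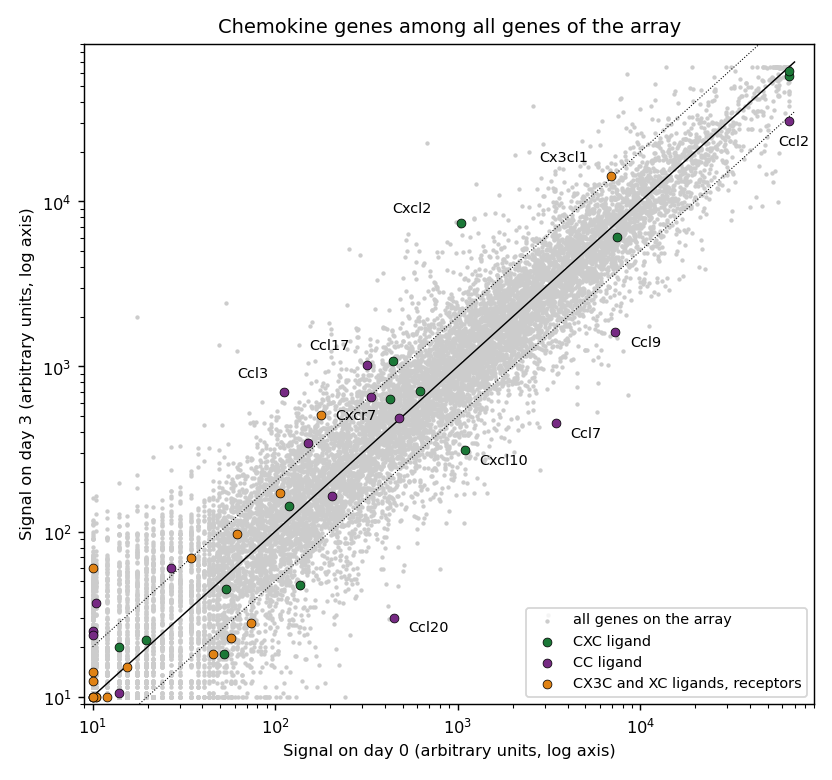
Signal on day 3 against signal on day 0 for every gene on the array (grey) and for chemokine genes by class, on log axes in arbitrary units, with values under 10 drawn at 10. The solid line is equality and the dotted lines are 2-fold. Cxcl2, Ccl3 and Ccl17 lie above the upper dotted line and Ccl7, Ccl9, Ccl20 and Cxcl10 below the lower one.

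Genes that act around the chemokines were read from 4 further lists, to be set against the 12.8% and 10.3% of all detected genes given above. Receptor signalling was covered by 23 detected genes, 4 of them at least 2-fold higher and 2 at least 2-fold lower on day 3. The higher ones were the receptor kinase gene Grk5 (4.27-fold), Dock2, an activator of Rac (3.62-fold), Pik3r5, a regulatory subunit of phosphoinositide 3-kinase (2.89-fold), and the arrestin gene Arrb1 (2.56-fold). Other detected probes of Arrb1 (log2 difference 0.78 and 0.66) and Grk5 (0.77) also read higher on day 3 but fell short of 2-fold. Grk6 (3.05-fold) and the G protein subunit gene Gnb1 (2.28-fold) were lower. Of 10 genes that control the stability of inflammatory messages, 2 were at least 2-fold higher, Zfp36l1 (2.37-fold) and Zfp36 (2.20-fold), whose proteins promote decay of AU-rich transcripts, and 0 were lower. Other probes of Zfp36l1 gave log2 differences of 1.25 and 0.95. Of 19 detected inducers and signal carriers, 3 were higher and 0 lower: Il6 (6.84-fold), Il1a (6.34-fold) and the interleukin-1 receptor gene Il1r1 (4.99-fold). Tnf was below the threshold on both days (107.5 on day 3 and 38 on day 0). Of 9 detected enzymes and proteoglycans that cut or hold chemokines, none reached 2-fold in either direction.

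Markers of other cells were read because several of the ligands are also made by leukocytes. The leukocyte antigen gene Ptprc gave 1.5 on day 3 and -0.5 on day 0, and the macrophage marker Adgre1 gave 10.5 on day 3 and 4.5 on day 0, both near the level of empty spots. Of 4 leukocyte markers on the array 2 were detected on each day, with a summed signal of 1158.5 on day 3 and 1166.5 on day 0. Of 8 macrophage markers, 3 were detected on day 3 and 4 on day 0. Their summed signal was 43636 on day 3 and 17372.5 on day 0, nearly all of it from Cd14 (39698.5 on day 3 and 16036 on day 0), and Itgam was 5.05-fold higher while Csf1r was at least 2.21-fold lower. Of 4 neutrophil markers 2 were detected on each day (summed signal 4575.5 on day 3 and 761 on day 0), nearly all of it from S100a8 on day 3, with S100a9 at 7 on day 3 and 14 on day 0. T cell markers were detected for 2 of 3 on day 3 and 1 of 3 on day 0 (530 and 299.5 on the same days). Endothelial markers were detected for 2 of 4 on day 3 and 3 of 4 on day 0 (752.5 and 541 on the same days). Mast cell markers were detected for 0 of 4 on either day (68 on day 3 and 51 on day 0). Their part in the chemokine differences was not tested, and in bulk RNA fewer cells of a type and less RNA per cell cannot be told apart.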

How the data were processed

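Amplified RNA was labelled with Cy5 and read on 1 array per day, per the labels' protocols. Each deposited per-sample file holds 39200 spots with their linear intensity. Background had apparently been subtracted, since 7402 empty spots centred on 0, by a method that the sources used here do not give. Normalized intensity values of the authors, for 11482 of 29922 gene probes, served as an alternative.

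Gene probes were quantile normalized with limma 3.58.1 in R 4.3.3, floored at 10 and put on the log2 scale. The step was tested on simulated arrays that differed by a constant factor and noise, with changes planted only in probes of middle signal. That simulation does not cover dim or saturated probes, or an array difference that varies with signal. Symbols came from the platform annotation (21020 probes with 1 symbol, 8902 with none, 0 with several). A gene table of GRCm38.p6 updated 3410 of them and left 52 unmatched. Where a gene had several probes, the brightest by mean log2 signal was used. Folds involving a signal below the threshold or saturated are lower bounds. Replicates were absent, so the number of arrays limits the precision.

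Every member was named, and other listed genes where at least 2-fold different or in the list of atypical receptors. Tnf, Xbp1, Cxcr1, Cxcr2, Cxcr5 and the cell type markers fall outside this rule, and all but the markers were chosen after their values were seen. The members, lists and alternatives were chosen with earlier results of these data known. Alternatives changed the scaling, offset, detection filter, bound, choice of probe, saturated genes and source table.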

Additional observations from a re-analysis of the deposited data

How the results depend on the processing

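All 13 members past 2-fold kept their direction in each of the 12 alternatives that measured them. Between 10 and 13 stayed at least 2-fold, except in the authors' table, which measured 8, all of them at least 2-fold. Median scaling over all gene probes moved the median of all detected genes to -0.49 and no normalization moved it to 0.67. The CXC median was -0.61 in the first and 0.82 in the second, and the CC median in the second was 0.68. The CXC minus CC gap was -0.21 under the first. Without a detection filter, or with the threshold at the 95th percentile of empty spots, 11 ligands were at least 2-fold higher in each, against 6 in the reported setting, and 2 receptors were at least 2-fold higher and 3 lower in each. The CC median was then 0.49 and 0.95, and the gap -0.45 and -0.91, because dim CC ligands entered. Receptors at least 2-fold higher numbered 3 with no normalization, 2 when the arrays were median-scaled on jointly detected probes and 0 in the authors' table, against 1. Single genes that fell short of 2-fold in an alternative were Ccl2, Ccl22, Cx3cl1, Cxcl3 and Cxcl4. Signs of Ccl11, Ccl25, Cxcl12, Cxcl14 and Cxcl16, all under 2-fold, turned in at least 1 alternative. Saturation limits Ccl2, Cxcl1 and Cxcl5. No paired analysis was possible because each day had 1 sample.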

Other observations

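Some members below the detection threshold still differed in raw value between the days. Raw values exceeded the 95th percentile of the empty spots, 9 on day 3 and 7 on day 0, for 41 of the 48 members on day 3 and 35 on day 0. Over all 16637 genes on the array, 15381 exceeded it on day 3 and 14271 on day 0. Xcl1 read 91 on day 3 and 2 on day 0, Ccl6 read 91 and 14 on the same days, Ccl12 read 57 and 6, and Ccl4 read 34 and 0. These 4 ligands were chosen after their values were seen, and the array's gene probes also had a higher median raw value on day 3. No fold is given for them because both days lie below the threshold. Other members below it varied, and a few are named as examples. Ccr8 read 130 on day 3 and 31 on day 0, and Ccr4 read 100 and 16 on the same days. Cx3cr1 (42 on day 3 and 44 on day 0) and Cxcl11 (26 and 24 on the same days) hardly differed.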
